A study of Oryza sativa with 36 samples.

Results

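The subject here is the last sampled step of rice endosperm during imbibition, from 16 h to 24 h. It was taken as the 3 endosperm arrays at 24 h minus the 3 endosperm arrays at 16 h, 6 of the 36 arrays of the series. It was followed over 57194 of the 57381 probe sets, the control and reporter probe sets being left out. Embryo and endosperm of rice seeds (Oryza sativa, labelled nipponbare on all 6 arrays) had been collected at 0, 4, 8, 12, 16 and 24 h, with 3 arrays for each tissue and time. Both endosperm groups came from seeds in sterile distilled water with constant air bubbling, at 30 °C in darkness. By label the groups differed in the time of imbibition and, in part, in the harvest day. The labels name no genotype other than the cultivar, no chemical treatment and no seed age. They do not say whether the endosperm samples kept the aleurone layer or whether replicates were separate batches of seed, so the p-values here speak to differences among these arrays only, and part of that spread may be technical. Total RNA had been amplified, labelled with biotin and hybridised to the Affymetrix rice array, and each value is a log2 GCRMA signal, on which a difference of 1 is a doubling.

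A cereal endosperm consists of a starchy body, whose cells are dead at maturity and filled with starch and storage protein, and of a living outer layer, the aleurone. After imbibition, gibberellin switches on genes for secreted hydrolases in the aleurone, among them the alpha-amylases that cut starch inside its chains, while abscisic acid opposes them. Transcripts stored at seed maturation, such as those for late embryogenesis abundant (LEA) proteins and small heat shock proteins, protect the dry seed and are lost as it takes up water.

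The endosperm label was borne out by the levels of starchy endosperm markers. The embryo markers were taken in part from earlier results of these data, as genes far brighter in embryo. Their low sums in endosperm were therefore partly set by that choice and do not test the label. The summed linear signal of 14 starchy endosperm markers was 105720 to 122076 on the 24 h arrays and 123503 to 132176 on the 16 h arrays, against 589 to 1985 on the embryo arrays of both times. All 15 aleurone markers lay above 3 on all 6 endosperm arrays. Only 1 of the 15 lay under 3 on each embryo array of both times, so that count hardly separates the tissues. The 18 embryo markers summed to 1377, 923 and 1077 on the 24 h arrays of replicates 1, 2 and 3, against 947, 983 and 988 on the 16 h arrays and 21818 to 27095 on the 24 h embryo arrays. Of these 18, between 4 and 6 lay under 3 on the 24 h arrays, and 7 on each 16 h array. On the embryo arrays of both times 3 or 4 of them did too, so part of this count is not particular to endosperm. The brightest in endosperm were HOS58 (8.55 at 24 h and 8.70 at 16 h) and TIFY10b (8.44 and 7.99). Both weigh most in the endosperm sums, and HOS58 stood at only 9.57 in embryo at 24 h. The sums are thus a rough gauge of embryo RNA. Endosperm and embryo columns have distributions of their own, so a level in one tissue is set beside the other only as a description. For the actin, GAPDH and cyclophilin controls the 3′ signal exceeded the 5′ signal by 3.23, 3.50 and 3.31 at 24 h, against 3.06, 3.18 and 2.97 at 16 h (24 h minus 16 h 0.28, exact 2-sided permutation p = 0.1, the smallest that 3 against 3 arrays allow). The rRNA control probe sets averaged 7.05 ± 0.27 at 24 h and 7.20 ± 0.19 at 16 h (SD, n = 3 each; exact permutation p = 0.5). Replicates correlated across probe sets at Pearson's r of 0.994 to 0.997. The small number of arrays limits the precision of every value.

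The step changed few transcripts. By limma, 392 probe sets (0.685% of those tested) had a Benjamini-Hochberg adjusted p under 0.05 and an absolute log2 difference of at least 1, the rule behind "rose", "fell" and "called" throughout. Of these, 283 rose and 109 fell. The groups did not overlap in 276 of the risers and 108 of the fallers, against 15.5% of all probe sets. That count comes from the same arrays as the calls, so it is a description. With 1 probe set for each of 17905 genes, the brightest in endosperm, 195 genes rose (1.09%) and 75 fell (0.419%), and the median of all genes was 0.00. The earlier change of the same tissue, 12 h minus 0 h, which shares no array with this step, called 5842 probe sets (10.2%). Only 29 of the risers and 24 of the fallers carry an informative name in the tables used, and the results below rest on these. In bulk tissue, fewer cells of a type and less RNA per cell cannot be told apart.

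**Figure D1:**
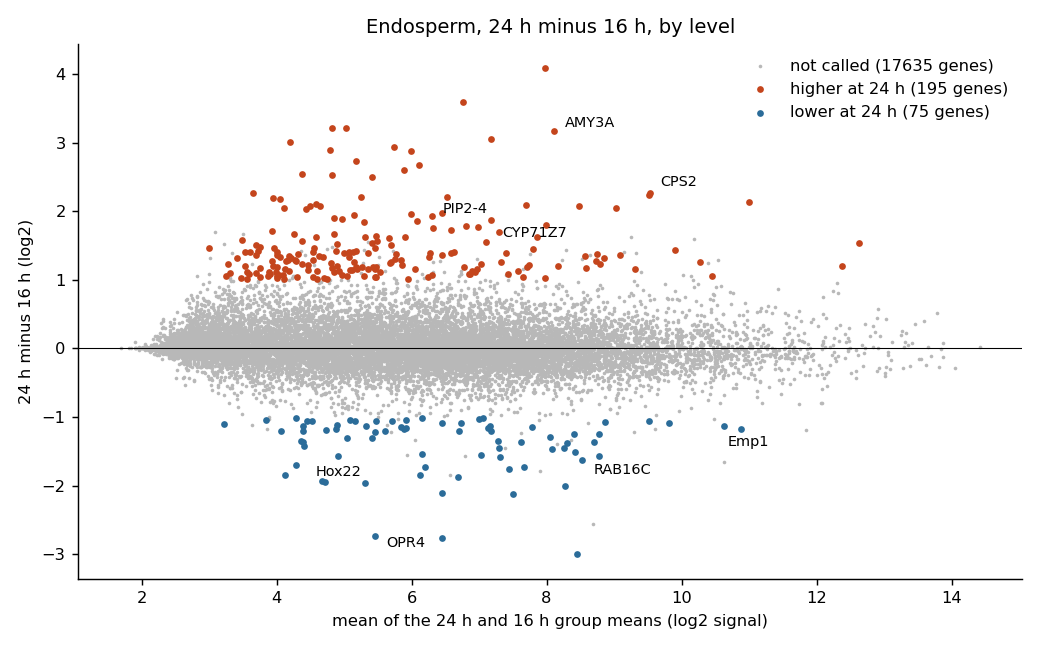
Each point is 1 of 17905 genes in endosperm, with the mean of its 24 h and 16 h levels (log2 signal) on the horizontal axis and the 24 h minus 16 h difference (log2) on the vertical axis. The 195 genes that rose and the 75 that fell are coloured, and the largest named rise is AMY3A at 3.17.

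The 24 h arrays were not equally far from the 16 h arrays. Among the 283 risers, replicate 2 was the 24 h array nearest to 16 h in 212, replicate 1 in 28 and replicate 3 in 43. Among the 109 fallers it was replicate 2 in 96, replicate 1 in 5 and replicate 3 in 8. Without replicate 1 of 24 h, 184 probe sets rose and 49 fell, and without replicate 2 of 24 h, 395 rose and 139 fell. By label, replicates 1 and 3 of the 2 times share a harvest day across times and replicates 2 do not. With the harvest day as a block, 193 probe sets rose and 90 fell, of which 160 and 74 were among the 283 and 109. Of 43 called genes named here 29 kept their call under that block, and those that lost it are given with their results.

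**Figure D2:**
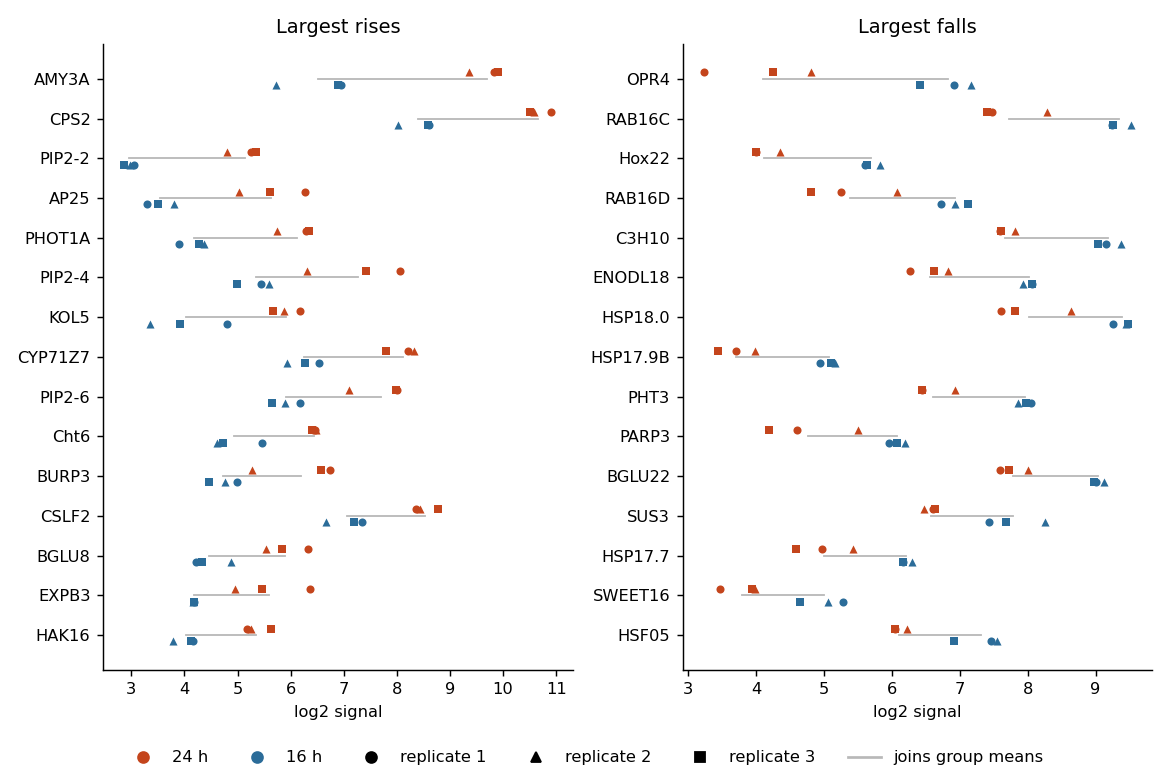
Each point is 1 array, with its log2 signal on the horizontal axis and genes down the page, 24 h above 16 h within each gene, for the 15 largest named rises and the 15 largest named falls. The marker shape gives the replicate and the grey line joins the group means. Only genes whose groups did not overlap were eligible. The 24 h triangle (replicate 2) is often the 24 h point closest to 16 h.

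Among the enzymes of starch breakdown, the alpha-amylase gene AMY3A had the largest rise of any named gene. Its log2 signal was 9.83, 9.36 and 9.90 at 24 h, against 6.95, 5.73 and 6.89 at 16 h, a difference of 3.17 ± 0.31 (standard error of the fit, as after every ± that follows a difference; adjusted p = 6.09e-07). The groups are far apart, with the lowest 24 h array above the highest 16 h array by more than the range of either. AMY3A was the 1 alpha-amylase gene of 5 that was called, while the median of the list was 0.65. AMY3D had 7.05, 6.92 and 7.22 at 24 h, against 5.81, 5.32 and 6.25 at 16 h, a difference of 1.27 that was not called (adjusted p = 0.403). AMY3E had 11.02, 10.92 and 11.22 at 24 h, against 10.07, 10.75 and 10.40 at 16 h (0.65, adjusted p = 0.439). AMY1A, the brightest member, had 13.45, 13.24 and 13.49 at 24 h, against 13.09, 13.19 and 13.16 at 16 h (0.25, adjusted p = 1). The fit shares 1 spread over all groups, and the SD of AMY1A was 3.55 at 0 h (n = 3). The fifth gene, amy2A, stayed between 2.52 and 2.55 on all 6 arrays, the floor of the signal.

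The course of AMY3A turned within the series. Its endosperm means were 9.79, 9.13, 7.78, 6.72, 6.52 and 9.70 at 0, 4, 8, 12, 16 and 24 h, so that at 24 h it was back near its level in the dry seed. AMY3D also turned, at 6.27, 5.77, 5.56, 5.06, 5.79 and 7.06, although neither its early nor its late difference was called. AMY1A ran 7.33, 9.51, 12.0, 12.8, 13.1 and 13.4 over the same times. In embryo AMY3A was at 2.29 at 24 h and 2.28 at 16 h. The list of other starch breakdown genes, 4 genes matched by name, held no call (median 0.21). In it the disproportionating enzymes DPE2 and DPE1 differed by -0.13 and 0.28. Further genes of starch breakdown may be measured under another name.

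**Figure D3:**
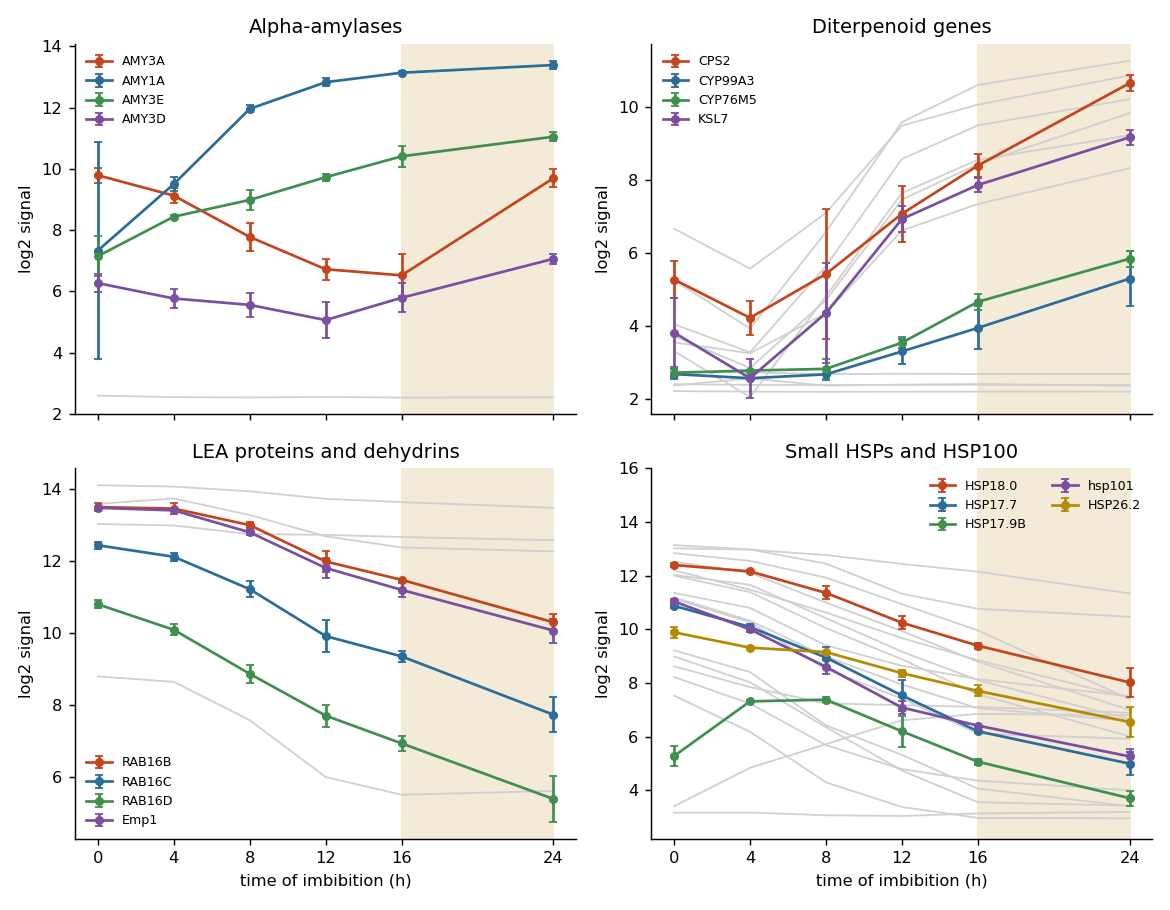
Endosperm log2 signal (vertical axis) against hours of imbibition (horizontal axis) for 4 gene groups, as means of 3 arrays with SD bars for the coloured genes and means alone for the other members in grey. The shaded span is the step from 16 h to 24 h. AMY3A falls until 16 h and is at 9.70 at 24 h, while the means of the 4 coloured LEA genes decline at each time.

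Of 6 protease genes, listed by name as aleurone secreted, 1 rose, the aspartic protease gene AP25, and the list median was 0.21. The list rests on gene names, and whether AP25 is expressed in aleurone was not tested. AP25 had 6.27, 5.03 and 5.61 at 24 h, against 3.30, 3.81 and 3.51 at 16 h (2.1 ± 0.26, adjusted p = 3.06e-05). It rose in embryo too (1.27 ± 0.26), where its level at 24 h was 10.5. The cysteine proteinase gene EP3A was bright at both times, at 12.9 on average at 24 h and 12.5 at 16 h (0.35, adjusted p = 0.753). Cell wall hydrolases were 42 genes, most of them at the floor, with 1 riser, 1 faller and a median of 0.01. The riser was the beta-glucosidase gene BGLU8, with 6.32, 5.54 and 5.83 at 24 h, against 4.21, 4.87 and 4.33 at 16 h (1.42 ± 0.26). The faller was another beta-glucosidase gene, BGLU22, with 7.59, 8.01 and 7.73 at 24 h, against 9.0, 9.12 and 8.98 at 16 h (-1.25 ± 0.32, adjusted p = 0.0287). CSLF2, whose family makes the mixed-linkage glucan of grass cell walls, also rose (1.45 ± 0.27; 1.27 and not called with the harvest day block), with 8.36, 8.44 and 8.77 at 24 h, against 7.34, 6.67 and 7.20 at 16 h. Of 30 expansin and xyloglucan enzyme genes 1 rose, the beta-expansin gene EXPB3 (1.42 ± 0.26), and 1 fell, the expansin-like gene EXLA1 (-1.20 ± 0.21), with a median of 0.01.

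Diterpenoid genes formed the group with the highest median of all lists, 0.76 over 14 genes, with 3 risers and no faller. These genes make the momilactone and phytocassane phytoalexins, antimicrobial compounds of rice. CPS2, the copalyl diphosphate synthase at the head of the phytocassane branch, had 10.91, 10.58 and 10.50 at 24 h, against 8.60, 8.03 and 8.58 at 16 h (2.26 ± 0.54, adjusted p = 0.0171). CYP99A3, a cytochrome P450 of the momilactone branch, had 6.05, 5.30 and 4.56 at 24 h, against 4.57, 3.40 and 3.91 at 16 h (1.35 ± 0.30, adjusted p = 0.00891), and its groups overlapped, the lowest 24 h array lying just under the highest 16 h array. CYP76M5 had 6.10, 5.71 and 5.75 at 24 h, against 4.92, 4.50 and 4.60 at 16 h (1.18 ± 0.12, adjusted p = 1.34e-06). Of the 11 members not called, 7 had differences between 0.66 and 1.4, among them CPS4 (1.4, adjusted p = 0.244) and the synthase KSL7 (1.30, adjusted p = 0.133). The other 4 stayed at the floor, under 2.8 on all 6 arrays. Without replicate 1 of 24 h, or without replicate 2 of 16 h, 1 of the 3 calls was left, and without replicate 3 of 24 h there were 2. CYP76M5 was called without any single array. With the harvest day block CPS2 (2.07) and CYP99A3 (0.98) were not called.

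CYP71Z7, a cytochrome P450 gene outside that list, rose by 1.86 ± 0.39 (adjusted p = 0.00624), with 8.21, 8.32 and 7.80 at 24 h, against 6.54, 5.93 and 6.26 at 16 h. CYP71Z7 was not called with the harvest day block (1.59). By the gene order of the RefSeq assembly ASM3414082v1, used for order alone, CYP76M5, CYP71Z7, CPS2 and LOC4329723 lie within a stretch of 7 protein-coding genes. All 7 were measured, and these 4 rose. The remaining 3 were not called, CYP76M8 (0.98), KSL7 (1.30) and CYP71Z6 (0.44), and no gene of the stretch was lower. The stretch was drawn from its first to its last called gene, so its share of risers was set by the calls. Beyond CPS2, the genes KS6 and CYP76M6 were at the floor and not called. CYP76M8, KSL7, CYP71Z7 and CPS2 had already risen between 0 and 12 h, by 1.80 to 3.11. None of the named genes of the stretch was called in the embryo step, where their differences were -0.77 to 0.62. KOL5, a gene named as ent-kaurene oxidase-like, rose by 1.89 ± 0.29 as well, with 6.19, 5.88 and 5.67 at 24 h, against 4.79, 3.36 and 3.92 at 16 h.

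Water channels held 3 risers of 25, all plasma membrane intrinsic proteins of the PIP2 group, with no faller and a median of 0.08. PIP2-2 had 5.26, 4.81 and 5.34 at 24 h, against 3.04, 2.97 and 2.87 at 16 h (2.17 ± 0.26, adjusted p = 1.54e-05), and its second probe set stayed at the floor (0.00). PIP2-4 had 8.06, 6.31 and 7.43 at 24 h, against 5.45, 5.59 and 5.0 at 16 h (1.92 ± 0.41, adjusted p = 0.00761). PIP2-6 had 8.0, 7.09 and 7.99 at 24 h, against 6.18, 5.90 and 5.64 at 16 h (1.79 ± 0.33, adjusted p = 0.00188). For all 3, replicate 2 was the lowest 24 h array, as it was for the embryo marker sums (1377, 923 and 1077 in replicates 1, 2 and 3). Their embryo levels at 24 h were 6.63, 11.5 and 10.3, above their endosperm levels, and the part of embryo RNA in these rises was not tested. PIP2-4 was not called without replicate 1 of 24 h, nor with the harvest day block (2.18), and PIP2-6 was not called with that block (1.79). The tonoplast channel TIP3-1, bright at 13.3 at both times, differed by 0.02. Among 72 metal and potassium transporter genes 2 rose and none fell (median 0.00), where 1.09% of all genes rose. They were HAK16, a potassium transporter gene, by 1.33 ± 0.20, and YSL13, of the yellow stripe-like family, by 1.27 ± 0.21. The potassium transporter gene HAK5, singled out after its values were seen, had 2 probe sets that went apart. The dimmer one had 7.80, 7.62 and 7.71 at 24 h, against 5.82, 5.09 and 5.52 at 16 h (2.23 ± 0.26). The brighter one, which stands for the gene in the counts, differed by -0.46 ± 0.11.

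The remaining named risers came from several families. PHOT1A, BURP3, KRP6 and LTP110-A stood at 10.5, 9.94, 7.23 and 11.05 in embryo at 24 h, at least 2 above their endosperm levels. Cht6, PIN5 and MT-I-2b stood at 6.93, 2.61 and 6.12 there. The part of embryo RNA in these rises was not tested. PHOT1A, the blue light receptor phototropin, had 6.29, 5.75 and 6.34 at 24 h, against 3.90, 4.37 and 4.27 at 16 h (1.95 ± 0.25), in seeds kept in darkness. Cht6, 1 riser of 14 chitinase and pathogenesis-related genes, had 6.46, 6.47 and 6.40 at 24 h, against 5.45, 4.62 and 4.73 at 16 h (1.51 ± 0.28; 1.37 and not called with the harvest day block). BURP3, a BURP domain gene, rose by 1.46 ± 0.25. PIN5, an auxin transport gene, was the 1 riser of 59 auxin genes, where 1.09% of all genes rose. It had 4.36, 4.63 and 4.30 at 24 h, against 3.09, 2.93 and 3.04 at 16 h (1.41 ± 0.06, adjusted p = 1.07e-13). Its SD was 0.18 at 24 h and 0.08 at 16 h, against 0.01 in embryo at both times, where it was at the floor. The fit shares 1 spread over all groups, so the small standard error does not describe the 24 h arrays. KRP6, an inhibitor of cyclin-dependent kinases, was the 1 riser of 35 cell cycle genes (1.21 ± 0.26). Its second probe set stayed at the floor (0.03). Single risers also came from 7 metallothionein genes, MT-I-2b (1.15 ± 0.24, its other 3 probe sets not called), and from 5 lipid transfer protein genes, LTP110-A (1.27 ± 0.33). LTP110-A had 7.38, 5.55 and 6.05 at 24 h, against 4.69, 5.67 and 4.83 at 16 h. Its groups overlap, and it was not called without replicate 1 of 24 h. With the harvest day block neither LTP110-A (1.57) nor MT-I-2b (1.13) was called.

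Of 8 genes for LEA proteins and dehydrins, which bind water or shield proteins and membranes in dry cells, 4 fell and none rose, with a median of -0.64. RAB16C had 7.48, 8.29 and 7.40 at 24 h, against 9.24, 9.52 and 9.26 at 16 h (-1.62 ± 0.43, adjusted p = 0.0362). RAB16D had 5.26, 6.07 and 4.81 at 24 h, against 6.72, 6.92 and 7.12 at 16 h (-1.54 ± 0.35, adjusted p = 0.0102). RAB16B had 10.2, 10.6 and 10.1 at 24 h, against 11.5 on each array at 16 h (-1.18 ± 0.29, adjusted p = 0.0221). These 3 dehydrin genes stand side by side in the gene order, with no other gene between them. Emp1, the Em-like group of LEA proteins, had 9.78, 10.43 and 9.98 at 24 h, against 11.01, 11.41 and 11.16 at 16 h (-1.13 ± 0.26, adjusted p = 0.0134). The other 4 members lay between -0.16 and 0.10, among them the bright genes RAB21 (13.5 at 24 h and 13.6 at 16 h), LEA19 and rab25. The 4 fallers continued an earlier decline, with RAB16C at 12.43, 12.11, 11.21, 9.91, 9.34 and 7.72 over the 6 times. All 4 fell in the embryo step as well, by 1.18 to 2.17. None of the 4 was called when replicate 1 or replicate 3 of 24 h was left out, and 1 or 2 were called without any 1 of the 16 h arrays, although each stayed lower.

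Small heat shock proteins and HSP100, chaperones that hold or rescue unfolded proteins, gave 5 fallers of 22 and no riser, and the lowest median of all lists, -0.73. In 21 of the 22 the difference was below 0, although HSP17.8 (-0.01) was at the floor at both times. HSP18.0 had 7.61, 8.64 and 7.82 at 24 h, against 9.26, 9.45 and 9.48 at 16 h (-1.37 ± 0.29, adjusted p = 0.00686), while its other 2 probe sets were not called. HSP17.9B had 3.71, 3.99 and 3.44 at 24 h, against 4.95, 5.16 and 5.11 at 16 h (-1.36 ± 0.37, adjusted p = 0.0407). HSP17.7 had 4.97, 5.43 and 4.59 at 24 h, against 6.17, 6.29 and 6.16 at 16 h (-1.21 ± 0.29, adjusted p = 0.0180). Another probe set of HSP17.7 stayed at the floor (-0.001). The HSP100 gene hsp101 had 5.32, 5.53 and 4.95 at 24 h, against 6.41, 6.43 and 6.41 at 16 h (-1.15 ± 0.31, adjusted p = 0.0371). The fifth faller, named after its values were seen, was HSP26.2 (-1.16 ± 0.24). The largest difference of the list, HSP16.9B at -2.56 ± 0.73, was not called (adjusted p = 0.0533), and it is also named after its values were seen. It had 6.76, 8.18 and 7.27 at 24 h, against 9.78, 10.15 and 9.96 at 16 h. Without replicate 1 or without replicate 3 of 24 h 1 gene of the list was called lower, and without any 1 of the 16 h arrays 2 or 3 were. With the harvest day block HSP17.9B (-1.29) and HSP17.7 (-1.22) were not called.

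Of the 23 genes of the HSP70, HSP90 and heat shock factor list, 2 fell and none rose (median -0.01). Both are heat shock factor genes, HSF05 (-1.20 ± 0.30) and HSF01 (-1.06 ± 0.28; -0.95 and not called with the harvest day block). HSF05 had 6.05, 6.23 and 6.04 at 24 h, against 7.46, 7.55 and 6.92 at 16 h. The HSP90 gene HSP81-3 stayed at 13.4 at 24 h and 13.3 at 16 h.

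**Figure D4:**
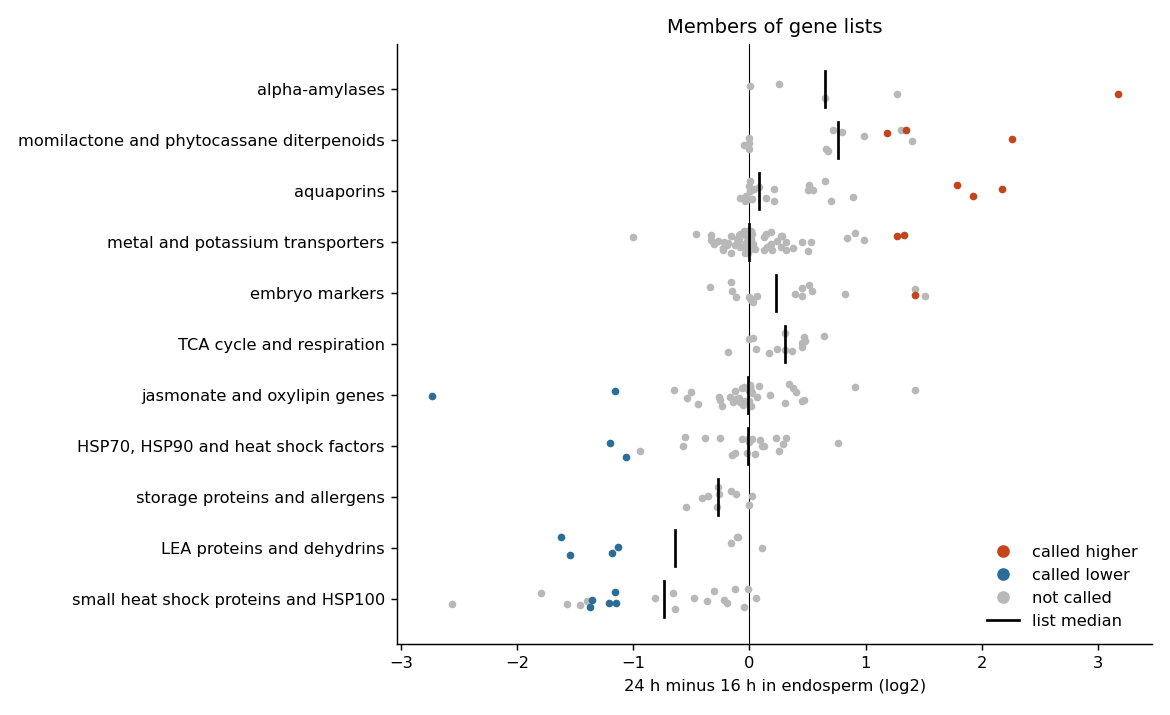
Each point is the 24 h minus 16 h difference (log2, horizontal axis) of 1 gene in endosperm, for 11 gene lists down the page, with random vertical spread inside each list. Colour marks the calls and the black bar the list median, which is 0.76 for the diterpenoid genes and -0.73 for the small heat shock proteins.

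OPR4, a gene of the 12-oxophytodienoate reductase family, had the largest fall of any named gene. It had 3.24, 4.81 and 4.25 at 24 h, against 6.92, 7.16 and 6.42 at 16 h (-2.73 ± 0.42, adjusted p = 2.82e-04). Its endosperm means were 5.98, 8.54, 8.94, 7.86, 6.83 and 4.10 over the 6 times, a rise early in imbibition and a fall below the dry seed by 24 h. It was 1 of 2 fallers among 39 jasmonate and oxylipin genes (median -0.01, no riser). The other was TIFY11C, a JAZ repressor of jasmonate signalling, with 7.09, 7.58 and 6.96 at 24 h, against 8.30, 8.48 and 8.30 at 16 h (-1.15 ± 0.22, adjusted p = 0.00216).

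Several other fallers serve sugar use, transport or regulation. SUS3, a sucrose synthase, was the 1 faller of 13 genes of fermentation and low oxygen, whose median was 0.47. It had 6.61, 6.47 and 6.64 at 24 h, against 7.43, 8.25 and 7.68 at 16 h (-1.21 ± 0.34, adjusted p = 0.0493), and was not called without any 1 of the 6 arrays, nor with the harvest day block (-0.86). SWEET16, of the SWEET sugar transporters, was the 1 faller of 18 sugar transporter genes (-1.21 ± 0.27), with 3.46, 3.98 and 3.94 at 24 h, against 5.28, 5.07 and 4.65 at 16 h. PHT3 had 6.45, 6.93 and 6.45 at 24 h, against 8.04, 7.85 and 7.97 at 16 h (-1.35 ± 0.26, adjusted p = 0.00307). Hox22, a homeodomain-leucine zipper gene, was the 1 called gene among 116 transcription factors of the seed, where 0.419% of all genes fell. It had 4.01, 4.35 and 4.0 at 24 h, against 5.60, 5.83 and 5.64 at 16 h (-1.57 ± 0.31, adjusted p = 0.00329). C3H10, a CCCH zinc finger gene (-1.51 ± 0.40), ENODL18, an early nodulin-like gene (-1.45 ± 0.39), and PARP3, a poly(ADP-ribose) polymerase gene (-1.31 ± 0.37), also fell. PARP3 was not called with the harvest day block (-1.38).

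The regulators of the hydrolase programme were not called. GAMYB, the gibberellin-responsive activator of alpha-amylase genes, had 10.84, 10.90 and 10.99 at 24 h, against 10.70, 10.60 and 10.85 at 16 h (0.19, adjusted p = 1). SLR1, the DELLA repressor of gibberellin signalling, differed by -0.15, and the receptor gene gid1 by -0.25. None of 12 gibberellin genes (median -0.07) and none of 23 abscisic acid genes (median -0.04) was called. SAPK1, an abscisic acid and osmotic stress kinase, came close, with 6.73, 6.68 and 6.64 at 24 h, against 7.46, 7.97 and 7.51 at 16 h (-0.96 ± 0.15, adjusted p = 3.31e-04), short of the fold. ABA8OX1, which breaks down abscisic acid, differed by 0.03 and the regulator VP1 by -0.15. The sentinel symbols ADH1, NCED3 and RAB16A matched no gene name in the tables used. These genes may still be measured under another name.

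In all, 24 of the 45 lists with a member held no called gene, and their medians lay between -0.69, for the single gene of the oleosin and caleosin list, and 0.31. The highest was that of 14 genes of the TCA cycle and respiration, of which 12 were above 0 and 5 had an adjusted p under 0.05 with differences under 1. The largest of these was SDH3-1 (0.64), a succinate dehydrogenase subunit, and SDH6 had 10.54, 10.27 and 10.59 at 24 h, against 9.98, 9.95 and 10.02 at 16 h (0.48, adjusted p = 1.54e-05). By its members this list covers succinate dehydrogenase, VDAC porins and COX5c, and not the cycle or respiration at large. Glycolysis genes (17, median 0.21) and fat breakdown and glyoxylate genes (3, median 0.23) held no call, with isocitrate lyase ICL at 13.4 at 24 h and 13.2 at 16 h. The fermentation gene PDC1 differed by 0.53 (adjusted p = 1). Of 10 storage protein and allergen genes none was called (median -0.27), and GLUB-4 was at the floor on all 6 arrays. GLUA-1 had 12.48, 13.01 and 12.93 at 24 h, against 13.16, 13.21 and 13.28 at 16 h. Starch synthesis genes (7, median -0.22), ribosomal proteins (23, median -0.03) and the proteasome and ubiquitin genes (21, median -0.09) held no call either, and Wx, listed as GBSS1, differed by 0.02.

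The same step in embryo, which shares no array with the endosperm step, called 1218 probe sets (2.13%), and 560 genes rose (3.13%) and 232 fell (1.3%). Of the 195 endosperm risers 41 also rose in embryo and none fell. Of the 75 endosperm fallers 31 also fell in embryo and none rose. The shared genes are 21.0% of the endosperm risers and 7.32% of the embryo risers, and 41.3% of the endosperm fallers and 13.4% of the embryo fallers. The difference between the steps was tested as an interaction, which called 797 probe sets (1.39%), and 128 genes were higher (0.715%) and 372 lower (2.08%) in the endosperm step than in the embryo step. Of the endosperm risers 37 were called higher than the embryo step and 1 lower, and of the fallers 9 were called lower and none higher. These counts use the same endosperm arrays as the calls and are a description, and a gene at the floor in embryo at 16 h could not fall there.

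**Figure D5:**
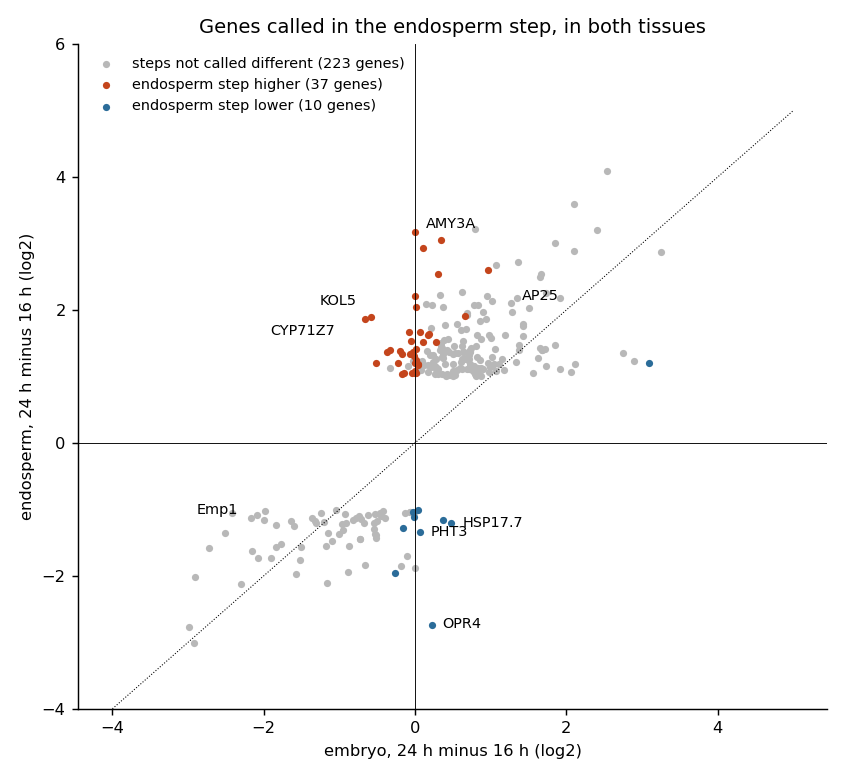
Each point is 1 of the 270 genes called in the endosperm step, with its 24 h minus 16 h difference (log2) in embryo on the horizontal axis and in endosperm on the vertical axis. The dotted line marks equal steps, and colour marks genes whose steps differed by the interaction test. AMY3A lies at 3.17 in endosperm and 0.00 in embryo, and OPR4 at -2.73 in endosperm and 0.22 in embryo, where it was near the floor at both times.

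Among the genes named by the largest changes, the interaction set AMY3A (3.17, adjusted p = 2.76e-05), CYP71Z7 (2.53), KOL5 (2.48), Cht6 (1.41) and HAK16 (1.4) above the embryo step. It set HSP17.7 (-1.69) and PHT3 (-1.41) below it, with embryo levels of 7.16 and 5.56 at 24 h, against 6.68 and 5.5 at 16 h. It also set OPR4 below it (-2.95), but the embryo level of OPR4 was 3.43 at 24 h and 3.21 at 16 h, after 9.19 at 4 h, so it was near the floor and had little room to fall. By contrast, the steps of the 3 risers PIP2-2, PIP2-6 and EXPB3, which rose in both tissues, were not called different (0.83, 0.36 and -0.23).

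Part of the risers were genes far brighter in embryo, a split chosen after the data were seen. At 24 h, 69 of the 195 risers had an embryo level at least 2 above their endosperm level, 94 lay within 2 and 32 were at least 2 below. Replicate 2 was the lowest 24 h endosperm array in 59 of the 69, in 71 of the 94 and in 17 of the 32. Their median rise over 16 h in replicate 2, and in the mean of replicates 1 and 3, was 0.95 and 1.6 for the 69, 1.1 and 1.4 for the 94, and 1.29 and 1.48 for the 32. Among the 75 fallers replicate 2 was also the 24 h array nearest to 16 h, in 6 of 8 genes with the embryo at least 2 above, 50 of 56 within 2 and 11 of 11 at least 2 below. Whether embryo RNA had a part in the place of replicate 2 was not tested. Without replicate 1 of 24 h, 35 of the 69, 65 of the 94 and 25 of the 32 stayed called. Without replicate 2 of 24 h these counts were 66, 87 and 28, and without replicate 3 of 24 h they were 50, 76 and 20. EXPB3, the 1 called embryo marker, had 6.37, 4.96 and 5.46 at 24 h, against 4.18, 4.17 and 4.17 at 16 h, and stood at 11.8 in embryo at 24 h. The mitotic cyclin gene CYCB1-1, another embryo marker, had 4.82, 2.96 and 4.18 at 24 h, against 2.46, 2.47 and 2.47 at 16 h, without a call (1.52, adjusted p = 0.126). The embryo marker sums of replicates 1 and 3 are the highest of the 6 arrays, and their part in these rises was not tested. AMY3A, CPS2, CYP71Z7, CYP76M5 and CSLF2 belong to the 32, with embryo levels at 24 h of 2.29, 6.02, 4.49, 2.56 and 3.98. EXPB3, PIP2-4, PIP2-6, AP25, BGLU8, PHOT1A, BURP3, KRP6 and LTP110-A belong to the 69. Of these, AP25 and BGLU8 stood at 10.5 and 9.34 in embryo at 24 h.

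Most fallers had been falling before. Between 0 and 12 h, 2727 genes rose (15.2%) and 1244 fell (6.95%) in endosperm. Of the 75 fallers of the last step 44 (58.7%) had fallen and 13 (17.3%) had risen by 12 h. The 13 include OPR4, PHT3, SUS3 and TIFY11C, which all had their highest mean at 8 or 12 h. Of the 195 risers 64 (32.8%) had risen and 6 (3.08%) had fallen by 12 h. Besides AMY3A, the 6 hold 1 gene with an informative name, UMPS2, at 6.03 in the dry seed, 4.60 at 12 h, 4.95 at 16 h and 5.98 at 24 h.

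The largest changes of all belong to genes with no informative name. LOC4350216 had 10.09, 9.44 and 10.54 at 24 h, against 6.90, 4.93 and 6.0 at 16 h (4.08 ± 0.54), and rose in embryo too (2.54). LOC4324064 had 6.45, 8.15 and 6.24 at 24 h, against 9.81, 10.19 and 9.85 at 16 h (-3.0 ± 0.45), and fell in embryo too (-2.92). LOC4343026 and LOC4343027, direct neighbours in the gene order, rose together by 2.94 ± 0.28 and 3.06 ± 0.46. LOC4343027 had 8.76, 8.72 and 8.63 at 24 h, against 6.0, 5.10 and 5.84 at 16 h. The interaction set both above the embryo step (2.83 and 2.71). Of the called probe sets, 66 risers and 28 fallers have no gene in the tables. The largest changes among these were 3.24 and 2.99 upward and -1.84 downward.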

How the data were processed

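The deposited table holds log2 signals, computed by the authors with GCRMA per the submitters' processing notes (version: not given in the sources used here). They were not transformed further. The tests left aside 123 control and 64 reporter probe sets. The 12 groups of tissue and time were fitted together over all 36 arrays (limma 3.58.1, R 4.3.3), with empirical Bayes moderation. A probe set was called at a Benjamini-Hochberg adjusted p below 0.05 over all 57194 probe sets and an absolute log2 difference of at least 1. Adjusted p-values come from this limma fit.

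Of the probe sets, 22436 matched 1 gene, 95 several and 34663 none in the array annotation and the RefSeq gene table of ASM3414082v1, used for names and gene order. A gene was represented by its brightest endosperm probe set. Members and the 47 gene lists, matched by gene name, were chosen with earlier results of these data known, and 2 lists matched no gene. Named genes were the 15 largest named changes in each direction with groups that did not overlap and a mean of at least 5 at the higher time, for each list up to 3 called members in the commoner direction and 1 in the opposite one (or its 2 brightest), and sentinel genes. Others are said to be named after their values were seen. Promoter sequences were not analysed here. Alternatives were blocks, fewer arrays, other moderation, scalings, filters and folds, and leaving out each array. Same-numbered arrays did not deviate together, so numbers were not treated as pairs. Tables and figures used Python 3.11.15, pandas 2.3.3, numpy 2.4.6 and matplotlib 3.10.9. The procedure was tested on simulated data.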

Additional observations from a re-analysis of the deposited data

Results flagged for a closer look

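These named genes changed differently in the 2 tissues over the same step, by the interaction test of the endosperm difference minus the embryo difference (log2, limma, adjusted over all probe sets). Higher in the endosperm step were AMY3A by 3.17, CYP71Z7 by 2.53, KOL5 by 2.48, Cht6 by 1.41, HAK16 by 1.4, PIN5 by 1.39 and CYP76M5 by 1.14. Lower in the endosperm step were OPR4 (-2.95), HSP17.7 (-1.69) and PHT3 (-1.41). OPR4 was near the floor in embryo (3.43 at 24 h and 3.21 at 16 h), so its embryo signal had little room to fall. All 10 were called in endosperm, and their embryo differences lay between -0.67 and 0.48 without a call.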

How the results depend on the processing

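The 392 calls of the step (283 rising, 109 falling) became 54 (30 and 24) with the 6 arrays of the 2 times alone, a fit with fewer arrays to estimate the spread. Without a minimum fold there were 1783 (1070 and 713), and at an absolute log2 difference of at least 2 there were 46 (40 and 6). Leaving out each array in turn gave 233 to 534 calls (184 to 395 rising and 49 to 139 falling). The lowest came without replicate 1 of 24 h (184 and 49), and falling calls also dropped to 58 without replicate 2 of 16 h and 63 without replicate 3 of 24 h. With a replicate block there were 404 (274 and 130), although the deviations of same-numbered arrays correlated at 0.03, -0.02 and 0.17. With a harvest day block there were 283 (193 and 90), and 29 of the 43 called named genes kept their call. The calls of the other comparisons without a minimum fold were 4503 for embryo, 1712 for the difference between steps and 16788 for 12 h minus 0 h. Scalings moved the median of all probe sets by at most 0.03, but centring on the spike-ins kept 213 of the 283 rising and 75 of the 109 falling calls, and HSF01, TIFY11C, Emp1 and hsp101 lost theirs. No called named gene reversed under any alternative. Of the 43, 22 kept their call without replicate 1 of 24 h, 41 without replicate 2 of 24 h and 6 with the 6 arrays alone. PIP2-2, Hox22 and PIN5 kept theirs under all 15 refits. Values near 2 to 3 lie at the floor of the signal, where falls cannot be measured.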
